A study of Homo sapiens with 18 samples.

Results

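The 6 libraries described here are the untreated controls of MDA-MB-231 and MDA-MB-468, out of 18 libraries in the series, and the rule took every control library of both lines. Both are established human triple-negative breast cancer (TNBC) lines, a class that lacks oestrogen receptor, progesterone receptor and amplified HER2. MDA-MB-231 is a mesenchymal-like line that carries an activating BRAF mutation, and MDA-MB-468 is a basal epithelial-like line known for a high EGFR copy number and for loss of RB1 and SMAD4. Each line is represented by 3 control libraries, and each also by 3 libraries after nicotinamide (NAM, 20 mM for 48 h), which serve below as a second set of libraries of the same lines. The MDA-MB-231 cells came from the American Type Culture Collection and the MDA-MB-468 cells from the Korea Cell Line Bank, both were grown in DMEM with serum, penicillin and streptomycin, and the methods give control RNA as taken before treatment. With 1 line of each kind, a difference between the lines cannot be told apart from the source of the cells, and it describes these lines rather than all mesenchymal or epithelial TNBC.

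Epithelial cells hold to each other through E-cadherin junctions, tight junctions and desmosomes, carry keratin filaments, and keep their identity through transcription factors such as GRHL2 and OVOL2 and the splicing regulator ESRP1. In the epithelial-mesenchymal transition (EMT), factors such as ZEB1 and SNAI2 repress that programme, keratins give way to vimentin, and cells gain contact with matrix through integrins, collagens and proteases. TNBC lines sit along this axis, and the rule's wording names MDA-MB-231 as mesenchymal and MDA-MB-468 as epithelial.

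The labels were checked against marker genes. Values are FPKM, that is fragments scaled to gene length and library size, as deposited. Of 10 epithelial markers (EPCAM, CDH1, CLDN3, CLDN4, CLDN7, ESRP1, GRHL2, KRT8, KRT18 and KRT19), 7 were at 1 FPKM or more in each of the MDA-MB-231 libraries, with a summed level of 347 to 519 FPKM, and 10 in each of the MDA-MB-468 libraries, with a summed level of 1525 to 1592 FPKM. Of 7 mesenchymal markers (VIM, CDH2, ZEB1, FN1, AXL, SPARC and CAV1), 5 reached 1 FPKM in MDA-MB-231, with sums of 638 to 652 FPKM, and 3 in MDA-MB-468, with sums of 39.0 to 44 FPKM. CDH2 and SPARC, usual mesenchymal markers, were near 0 in both lines, and FN1 was lower in MDA-MB-231. Of the receptors that define the class, PGR was at 0 in all 6 libraries, ESR1 averaged 0.00127 FPKM in MDA-MB-231 and 0.728 FPKM in MDA-MB-468, and ERBB2 averaged 14.4 FPKM in MDA-MB-231 and 12.7 FPKM in MDA-MB-468 and passed no test of a difference. Of 15 markers of fibroblasts, blood and vessels, 2 were at 1 FPKM or more in each line. The 14 other than CD14 summed to 4.51 to 5.79 FPKM in MDA-MB-231 and 3.19 to 4.97 FPKM in MDA-MB-468, with PTPRC, CD3E, DCN and LUM at 0 or under 0.1 FPKM. CD14, a receptor best known from monocytes, stood apart, at 2.68, 1.48 and 1.503 FPKM in MDA-MB-231, against 108, 114 and 95.1 FPKM in MDA-MB-468.

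The recovered depth was 11956284 to 19951989 reads per library in MDA-MB-231 and 12404218 to 17967471 reads in MDA-MB-468. The libraries of a line resembled each other more than those of the other line: the correlation of log2 values across genes, which are not independent replicates, was 0.946 to 0.997 within MDA-MB-231, 0.943 to 0.984 within MDA-MB-468 and 0.672 to 0.704 between the lines. The first principal component held 85.5% of the variance and separated the lines, and the second held 8.02% and set library 1 of each line apart from the other two. Libraries 2 and 3 of MDA-MB-231 were closer than any other pair, but with a median chi-square of 0.92 per gene they differed by more than the 0.455 expected from sampling, so they were kept as separate samples. The labels do not say whether the replicates were separate cultures, so p-values measure the spread between these libraries, which may be technical.

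Of 60676 genes in the table, 15002 reached 1 FPKM in 3 or more of the 6 libraries and were tested. Differences are MDA-MB-231 minus MDA-MB-468 on the log2(FPKM + 1) scale after quantile normalization, so they understate the change of low genes. A gene was called when the Benjamini-Hochberg adjusted p of the limma test was under 0.05 and the difference exceeded 0.58 in size. By that rule 3646 genes were higher in MDA-MB-231 (24.3% of those tested) and 3429 were lower (22.9%), and 7927 passed in neither direction. The median difference over all tested genes was 0.08. Called differences were often large, with 263 genes higher and 411 lower by over 3. The groups of 3 did not overlap for 6704 of the 7075 called genes. That largely follows from the call rule, so it adds no support to the calls. The share over all genes tested is not given.

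Part of these counts follows from the filter. Genes that reached 1 FPKM in one line only were called far more often than others: 794 genes passed through MDA-MB-231 alone, and all 794 were called higher, and 1641 passed through MDA-MB-468 alone, of which 1370 were called lower. Among the 10958 genes at 1 FPKM or more in all 6 libraries, 2435 were higher (22.2%) and 1791 lower (16.3%). At the edge of the filter, MKRN5P and ISM1 were kept with a third-highest value of 1.001 FPKM, and PLEKHA1 and MIR320E, at 0.9997 and 0.9985 FPKM, were left out. Leaving out library 1 of both lines gave 4430 higher and 3914 lower, and no further normalization gave 2924 higher and 4006 lower (42.2% of the calls higher, against 51.5%), with the median over all genes at -0.05. Quantile normalization moved differences towards MDA-MB-231 most at low levels, by a median of 0.33 for the 909 genes with a mean log2(FPKM + 1) up to 1 and 0.03 for the 3994 above 4. Without it, 764 of the 794 genes were called higher and 1572 of the 1641 lower, and among the genes at 1 FPKM or more in all 6 libraries 1952 were higher and 2060 lower, so the balance of directions turned.

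The largest differences included VIM, G0S2 and HLA-DRA on the MDA-MB-231 side and S100A7, S100A9 and KLK5 on the MDA-MB-468 side. The 15 leaders in each direction were taken by size of difference among called genes whose higher line averaged 5 FPKM or more, so their size is a description of the choice. On the MDA-MB-231 side, G0S2, an inhibitor of the lipase ATGL, led. It stood at 281, 321 and 324 FPKM in MDA-MB-231, against 0, 0 and 0.134 FPKM in MDA-MB-468, and the log2 difference was 8.24 ± 0.22 (SE, n = 3 libraries each, limma adjusted p = 5.5e-07). VIM, the intermediate filament protein of mesenchymal cells, followed with 285, 217 and 222 FPKM in MDA-MB-231, against 0.132, 0.211 and 0.272 FPKM in MDA-MB-468. For VIM the log2 difference was 7.77 ± 0.14 (SE, n = 3 libraries each, limma adjusted p = 3.6e-07). The groups did not overlap for either gene, and the 3 MDA-MB-468 libraries were near 0 for both. VIM-AS1 overlaps VIM on the other strand and had 203 against 0.164 FPKM. The labels name a stranded kit, but whether counting used strand is not stated, so the reads of VIM and VIM-AS1 cannot be told apart.

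Other leaders higher in MDA-MB-231 were TGM2, a protein cross-linking transglutaminase (log2 difference 7.15), AXL, a receptor tyrosine kinase (log2 difference 6.39), FLNC, an actin cross-linking filamin (log2 difference 6.05), FOSL1, an AP-1 subunit (log2 difference 5.95), HLA-DRA, the class II alpha chain (log2 difference 6.87), CSF2, which encodes GM-CSF (log2 difference 6.65), and CXCL1, a neutrophil chemokine (log2 difference 6.33). SPANXB1, a cancer-testis gene of a multicopy family whose members share reads, had 351, 169.8 and 154 FPKM in MDA-MB-231, against 0 FPKM in all 3 libraries of MDA-MB-468. The low end was led by S100A7, a calcium-binding alarmin of stressed epithelium, which was at 0 in all 3 MDA-MB-231 libraries, against 764, 535 and 449 FPKM in MDA-MB-468. S100A9, a subunit of calprotectin, had 0.308, 0.185 and 0.0920 FPKM in MDA-MB-231, against 932, 757 and 687 FPKM in MDA-MB-468. Each MDA-MB-468 library exceeded every MDA-MB-231 library by a wide margin for both. KLK5, a secreted serine protease (log2 difference -8.13), CD24, a mucin-like surface protein (log2 difference -8.09), SLPI and PI3, inhibitors of leukocyte proteases (log2 differences -8.00 and -7.50), CASP14, a caspase of keratinocyte differentiation (log2 difference -7.00), CALML5, a calmodulin-like skin protein (log2 difference -7.45), and CRABP2, a retinoic acid carrier (log2 difference -7.07), also led this side. The plot of the leading genes gives each library's level.

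**Figure D1:**
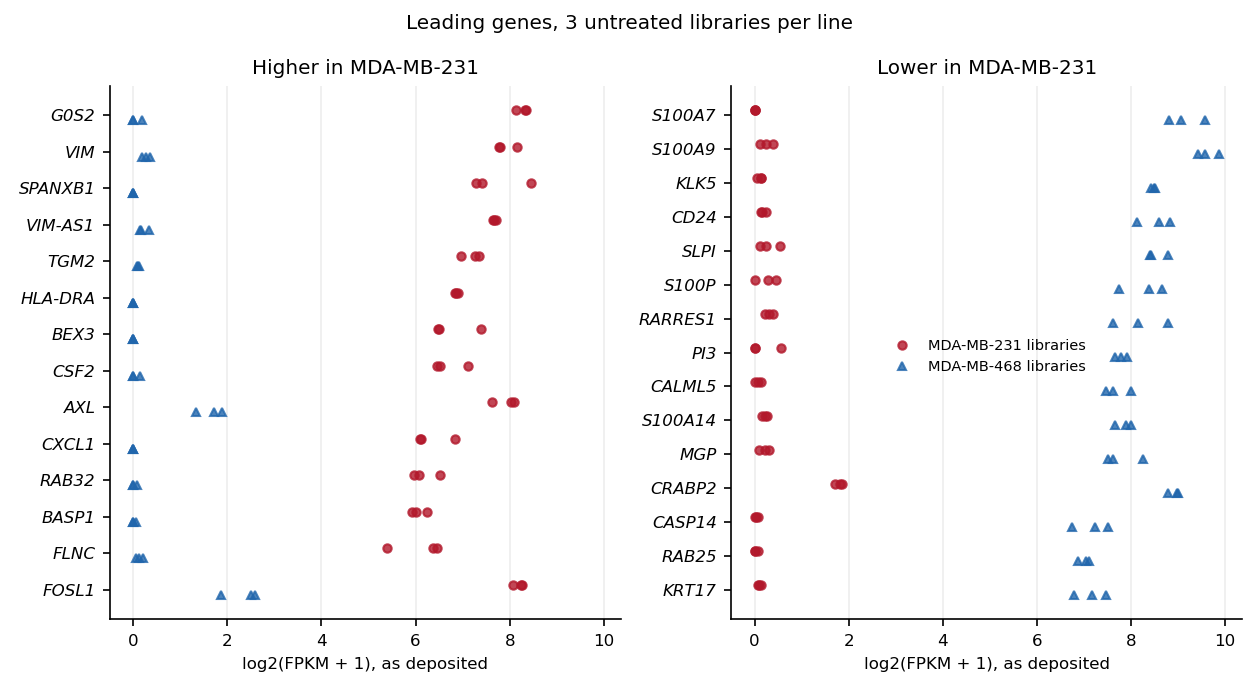
The FPKM of the leading genes as log2(FPKM + 1) on the horizontal axis, one point per library, with MDA-MB-231 as red circles and MDA-MB-468 as blue triangles. The left panel holds the genes higher in MDA-MB-231 and the right panel those lower in MDA-MB-231. The groups of 3 points do not overlap for any gene shown, and VIM and S100A9 differ by 7.77 and -9.06 on the log2 scale.

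Genes of epithelial adhesion and polarity were almost all lower in MDA-MB-231. Of 29 tested, 28 were lower (96.6%, against 22.9% over all genes tested) and 1 higher, PARD6B, with a median log2 difference of -3.57, against 0.08 over all tested. Of the 29, 14 had passed the filter through MDA-MB-468 alone. Of the 12 at 1 FPKM or more in all 6 libraries, 11 were lower and 1 higher, where 16.3% of all such genes were lower. CDH1, which encodes E-cadherin, had 0.0290, 0.0607 and 0.0605 FPKM in MDA-MB-231, against 19, 22.5 and 24.3 FPKM in MDA-MB-468. EPCAM, the epithelial cell adhesion molecule, had 3.42, 2.98 and 3.06 FPKM in MDA-MB-231, against 155, 86.5 and 104.8 FPKM in MDA-MB-468, and the log2 difference was -4.70 ± 0.25 (SE, n = 3 libraries each, limma adjusted p = 6.1e-06). All 3 MDA-MB-468 libraries stood well above all 3 MDA-MB-231 libraries for both genes. RAB25, a GTPase of apical recycling vesicles, had the largest log2 difference in the list, -6.92.

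Tight junction genes were lower as well. CLDN3, CLDN7 and CLDN1, claudins that seal the paracellular space, had log2 differences of -4.75, -4.20 and -2.54. TJP3, a junctional scaffold, had 0.178, 0.214 and 0.213 FPKM in MDA-MB-231, against 38.8, 56.4 and 51.1 FPKM in MDA-MB-468. Polarity genes CRB3 (log2 difference -4.04) and LLGL2 (log2 difference -4.09) and the surface proteases and inhibitors PRSS8 (log2 difference -5.71), ST14 (log2 difference -5.49), SPINT1 (log2 difference -4.88) and SPINT2 (log2 difference -1.96) were lower in MDA-MB-231 as well. PARD6B, a polarity adaptor and the exception, averaged 8.62 FPKM in MDA-MB-231 and 2.52 FPKM in MDA-MB-468 and was not called when library 3 of MDA-MB-468 was left out, where the log2 difference was 1.53.

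E-box sequences of the form CAGGTG, the motif bound by ZEB1 and SNAI2, were searched in RefSeq promoter windows running from 250 bases before to 50 after each start in GRCh38.p14, on both strands (CAGGTG or CACCTG). Of 15 epithelial adhesion genes with a window, 10 held a match, as 11 of their 19 windows did (57.9%), against 7231 of 35116 windows of the same length over all genes (20.6%) and 3 of 31 windows of ribosomal protein genes (9.68%). The mucin and apical surface list had matches in 8 of 15 windows (53.3%). CDH1 and EPCAM are named only, with no window in the table. The 250 bases before the start of RAB25 (chr1:156060910-156061159, plus strand) and CLDN7 (chr17:7262479-7262728, minus strand) are shown because these genes fell strongly and hold 1 and 4 matches. CLDN7 has 2 windows, and the one with the most matches before the start was taken. Capitals mark the E-box, and a match is a description of the letters only.
RAB25: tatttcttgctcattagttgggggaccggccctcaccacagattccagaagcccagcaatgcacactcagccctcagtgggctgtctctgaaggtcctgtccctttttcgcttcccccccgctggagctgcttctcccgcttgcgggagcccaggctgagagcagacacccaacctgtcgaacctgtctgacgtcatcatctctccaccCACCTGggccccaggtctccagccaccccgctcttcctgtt
CLDN7: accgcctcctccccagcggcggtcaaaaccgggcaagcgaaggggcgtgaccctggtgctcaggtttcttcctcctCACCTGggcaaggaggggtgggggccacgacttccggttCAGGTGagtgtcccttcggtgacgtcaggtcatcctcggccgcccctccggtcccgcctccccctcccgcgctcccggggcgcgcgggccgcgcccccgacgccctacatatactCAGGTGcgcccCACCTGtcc

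Keratins were mostly lower in MDA-MB-231. Of 16 tested, 12 were lower in MDA-MB-231 and 2 higher, with a median log2 difference of -3.69, and 7 had passed through MDA-MB-468 alone. Of the 8 at 1 FPKM or more in every library, 4 were lower and 2 higher. The basal keratins KRT5, KRT14, KRT16 and KRT17 were lower, with log2 differences of -6.68, -5.03, -5.29 and -6.79. KRT17 had 0.0590, 0.0707 and 0.106 FPKM in MDA-MB-231, against 110.1, 176 and 144 FPKM in MDA-MB-468, with no overlap of the groups. KRT4, KRT23 and KRT6B were lower as well (log2 differences -6.57, -6.14 and -5.69), and KRT4, a keratin of mucosal surfaces, had 0, 0.0184 and 0.0183 FPKM in MDA-MB-231, against 96.6, 114 and 95.9 FPKM in MDA-MB-468. The simple keratins KRT8, KRT18 and KRT19, which luminal epithelium uses, were lower, with log2 differences of -1.09, -0.80 and -2.90, and KRT8 still had 147, 109 and 113 FPKM in MDA-MB-231, against 204, 269 and 283 FPKM in MDA-MB-468. KRT8, KRT18 and KRT19 averaged 123, 143 and 92.1 FPKM in MDA-MB-231, where the basal keratins were near 0. KRT80 was higher (log2 difference 1.32), as was KRT81, whose log2 difference of 0.65 ranged over 0.43 to 0.77 when 1 library was left out and was then not called in any of the 6 cases. Keratin genes of one type are close paralogs, so their reads may be partly shared.

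The transcription factors of epithelial and luminal identity followed the same direction. Of 20 tested, 19 were lower in MDA-MB-231 and none higher, with a median log2 difference of -2.54, and 10 passed through MDA-MB-468 alone. Of the 8 at 1 FPKM or more in every library, 7 were lower. GRHL2, which maintains junction genes, averaged 0.00582 FPKM in MDA-MB-231 and 27.1 FPKM in MDA-MB-468. ESRP1, a splicing regulator of epithelial isoforms, had 0.0544, 0.0109 and 0.0324 FPKM in MDA-MB-231, against 47.1, 30.2 and 36.7 FPKM in MDA-MB-468, and the log2 difference was -5.00 ± 0.20 (SE, n = 3 libraries each, limma adjusted p = 2.0e-06). The groups did not overlap for ESRP1. OVOL2, a repressor of ZEB1, had a log2 difference of -3.43, and FOXA1, a pioneer factor of luminal cells, had -3.89. ELF3, an epithelial ETS factor, had a log2 difference of -5.04, TP63, a basal factor, had -1.87, and GATA3 and KLF5 had -1.93 and -2.44. SPDEF, a factor of secretory cells, had 1.34, 1.02 and 0.909 FPKM in MDA-MB-231, against 61.2, 67.6 and 67.2 FPKM in MDA-MB-468. EHF (log2 difference -1.15) was the tested member that was not called.

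The host transcripts of epithelial microRNAs were measured too, but mature microRNAs were not. MIR200CHG, which hosts miR-200c and miR-141, was at 0 in all 3 MDA-MB-231 libraries, against 21.4, 17.2 and 11.4 FPKM in MDA-MB-468. MIR205HG was likewise at 0 in MDA-MB-231, against 11.3, 6.88 and 5.80 FPKM in MDA-MB-468. MIR31HG was at 0 against 3.21, 2.89 and 3.23 FPKM. The 3 hosts had passed the filter through MDA-MB-468 alone. Mature sequences inside these hosts on GRCh38.p14 are shown for microRNAs known to target ZEB1 and ZEB2 (miR-200c, miR-141 and miR-205). That of miR-31 is shown because it lies in 9p21, whose listed genes were at or near 0 in MDA-MB-231. The sequences of miR-200c-5p and miR-205-3p also lie inside these hosts and are not shown. Capitals mark the seed, bases 2 to 8. By these bases miR-200c-3p shares the seed AAUACUG with miR-200b-3p and miR-429, and miR-141-3p shares AACACUG with miR-200a-3p. The plus-strand positions are chr12:6963742-6963764 for miR-200c-3p, chr12:6964155-6964176 for miR-141-3p and chr1:209432166-209432187 for miR-205-5p, and miR-31-5p lies on the minus strand at chr9:21512158-21512178.
hsa-miR-200c-3p: uAAUACUGccggguaaugaugga
hsa-miR-141-3p: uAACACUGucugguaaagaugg
hsa-miR-205-5p: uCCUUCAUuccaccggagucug
hsa-miR-31-5p: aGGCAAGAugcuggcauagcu

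Desmosomes and hemidesmosomes did not follow the adhesion genes as a block. Of 17 tested, 7 were higher in MDA-MB-231 (41.2%), 7 lower (41.2%) and 3 neither, with a median log2 difference of -0.18. The shares over all genes tested were 24.3% higher and 22.9% lower. Of the 17, 3 had passed through MDA-MB-231 alone and 2 through MDA-MB-468 alone. Of the 11 at 1 FPKM or more in every library, 3 were higher and 5 lower. The lower members included DSP, the plaque protein desmoplakin (log2 difference -2.35), JUP, plakoglobin (log2 difference -2.34), and DSC3, a desmosomal cadherin (log2 difference -3.27). The higher members included ITGA6, LAMB3 and COL17A1, which anchor cells to the basement membrane (log2 differences 1.53, 2.56 and 1.21). LAMB3, a chain of laminin, had 132, 162 and 170.4 FPKM in MDA-MB-231, against 20.1, 33.7 and 25.8 FPKM in MDA-MB-468. Its 3 MDA-MB-231 libraries all exceeded the MDA-MB-468 libraries, opposite in direction to DSP. DSC2, a second desmosomal cadherin, and PKP3, a plaque plakophilin, were lower too (log2 differences -3.14 and -2.19). PPL, a plakin of the cornified envelope, had 1.06, 2.67 and 2.67 FPKM in MDA-MB-231, against 0, 0.0177 and 0 FPKM in MDA-MB-468, while PLEC, a linker of keratin to hemidesmosomes, and LAMA3, a laminin chain, were higher (log2 differences 1.48 and 1.39).

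Surface and secreted proteins of glandular epithelium were also lower in MDA-MB-231. Of 13 tested mucin and apical surface genes, 12 were lower and 1 higher (MSLN, mesothelin, log2 difference 2.16), with a median log2 difference of -3.88, and 11 had passed through MDA-MB-468 alone. Of the 2 at 1 FPKM or more in every library, 1 was higher and 1 lower. MUC1, the transmembrane mucin, had 0.600, 0.381 and 0.290 FPKM in MDA-MB-231, against 23.7, 23.6 and 26.5 FPKM in MDA-MB-468. LCN2, a siderophore-binding lipocalin, was lower, with a log2 difference of -2.03 but averaged 91.0 FPKM in MDA-MB-231, against 375 FPKM in MDA-MB-468. PROM1, AGR2 and TSPAN1 had log2 differences of -4.32, -4.49 and -5.04. PROM2, a relative of PROM1, had 0.321, 0.358 and 0.417 FPKM in MDA-MB-231, against 30.7, 50.4 and 43.7 FPKM in MDA-MB-468. Among 14 tested S100 genes, 7 were lower and 3 higher, and 6 had passed through MDA-MB-468 alone. Of the 8 S100 genes at 1 FPKM or more in every library, 3 were higher and 1 lower. S100A8, S100A9, S100A14 and S100P were among the lower (log2 differences -6.71, -9.06, -7.33 and -7.80), while S100A4, a gene tied to motility, and S100A11 passed no test (log2 differences 0.35 and -0.18). S100A3 and S100A10, the annexin partner, were higher (log2 differences 2.02 and 0.92), and S100A2 was lower (log2 difference -1.35).

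**Figure D2:**
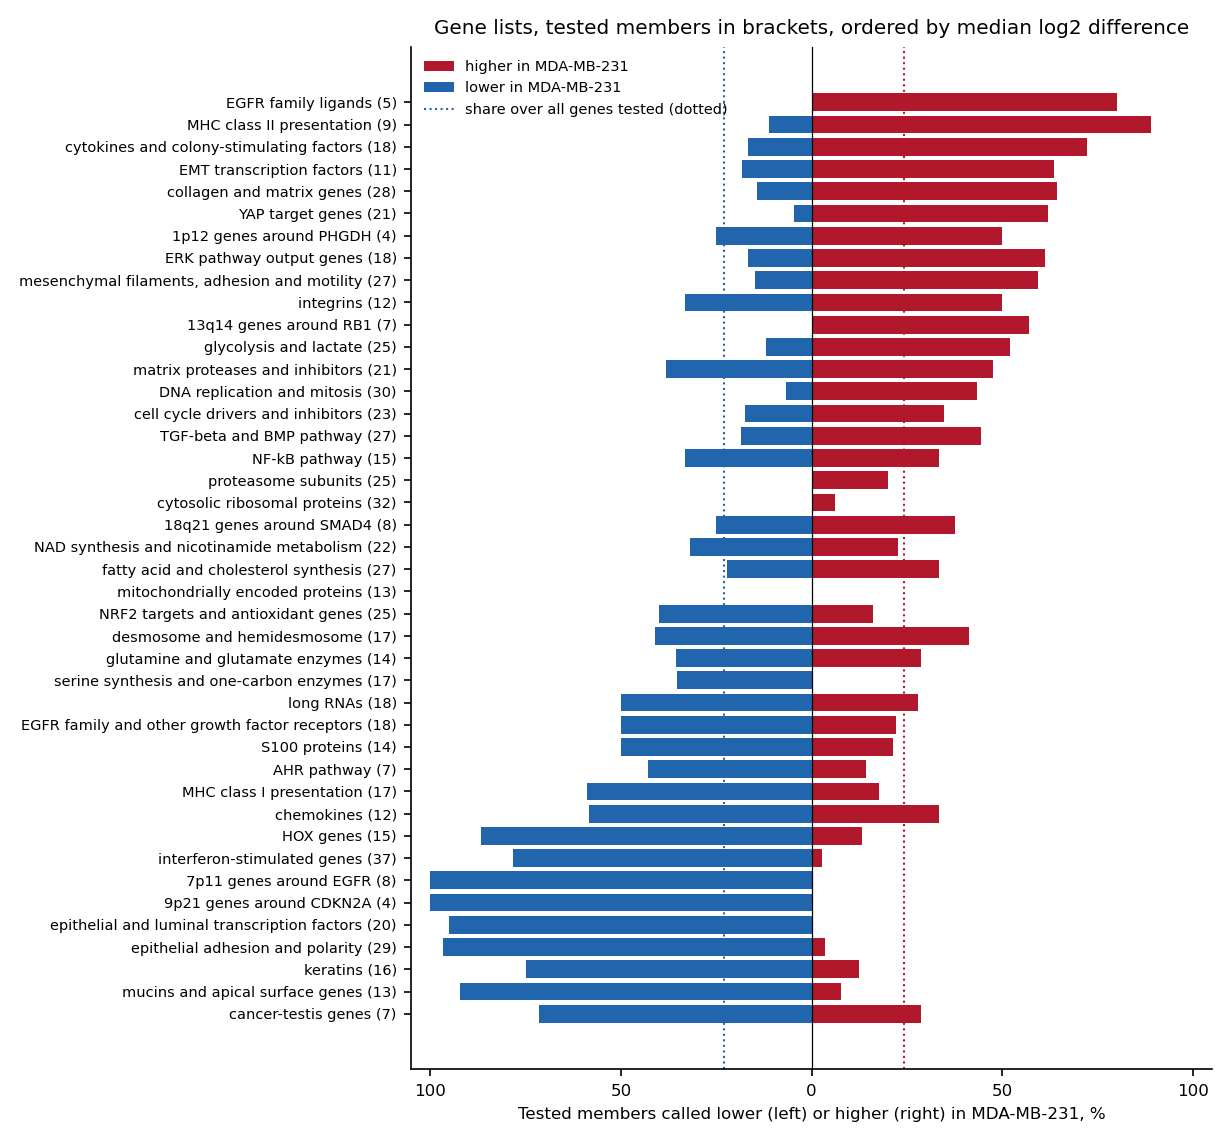
The share of tested members of each gene list called lower (left, blue) or higher (right, red) in MDA-MB-231, with the number tested in brackets and lists ordered by their median difference. Dotted lines mark the shares over all genes tested, 22.9% lower and 24.3% higher, and the epithelial adhesion list reaches 96.6% lower.

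The EMT transcription factors were mixed, with ZEB1 and SNAI2 higher in MDA-MB-231 and TWIST2 lower. Of 11 tested of 16 listed, 7 were higher (63.6%) and 2 lower (18.2%), against 24.3% and 22.9% over all genes tested. The median log2 difference was 1.88, and 4 had passed through MDA-MB-231 alone. Of the 6 at 1 FPKM or more in every library, 3 were higher and 1 lower. ZEB1 had 3.00, 4.55 and 3.84 FPKM in MDA-MB-231, against 0.0493, 0.0316 and 0.0204 FPKM in MDA-MB-468, and the log2 difference was 2.31 ± 0.14 (SE, n = 3 libraries each, limma adjusted p = 1.4e-05). SNAI2, which represses E-cadherin, was at 10.2, 8.19 and 8.03 FPKM in MDA-MB-231 and 0 in all 3 MDA-MB-468 libraries. TWIST2 ran the other way, at 0 in all MDA-MB-231 libraries, against 14.2, 15.9 and 15.7 FPKM in MDA-MB-468. FOXQ1 was also lower (log2 difference -1.52), and SNAI1, with overlapping groups, was not called (log2 difference -0.21). HMGA2, RUNX2, TEAD1 and ETS1, factors of motile or embryonic programmes, were higher, with log2 differences of 2.15, 2.15, 1.88 and 1.84. ZEB2, TWIST1, PRRX1, TCF4 and FOXC2 did not reach the filter.

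Mesenchymal filament, adhesion and motility genes were higher in MDA-MB-231 in 16 of 27 tested (59.3%), lower in 4 (14.8%) and neither in 7. Over all genes tested the shares were 24.3% higher and 22.9% lower. The median log2 difference of the list was 0.99. Of the 27, 6 had passed through MDA-MB-231 alone and 2 through MDA-MB-468 alone. Of the 18 at 1 FPKM or more in every library, 9 were higher and 2 lower. AXL had 197, 258 and 272 FPKM in MDA-MB-231, against 1.53, 2.29 and 2.69 FPKM in MDA-MB-468. CAV1, the coat protein of caveolae, averaged 148 FPKM in MDA-MB-231 and 15.3 FPKM in MDA-MB-468. L1CAM, an adhesion molecule of neurons and invading cells, had a log2 difference of 4.02, MYL9, a regulatory myosin light chain, had 5.56, and CDH11 and CDH4, mesenchymal and retinal cadherins, had 3.74 and 4.05. EMP3, a tetraspan membrane protein, had 217, 91.4 and 90.3 FPKM in MDA-MB-231, against 3.11, 3.28 and 2.93 FPKM in MDA-MB-468, and BASP1, a membrane protein of growth cones, had a log2 difference of 6.07. The 4 lower members were FN1, TPM1, MME and NCAM1. FN1, fibronectin, had 6.11, 10.3 and 10.3 FPKM in MDA-MB-231, against 22.5, 26.9 and 22.6 FPKM in MDA-MB-468. All 3 MDA-MB-231 libraries lay below all MDA-MB-468 libraries for FN1, a gene used as a mesenchymal marker.

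Collagen and matrix genes were mostly higher in MDA-MB-231. Of 28 tested, 18 were higher in MDA-MB-231 (64.3%) and 4 lower (14.3%), against 24.3% and 22.9% over all genes tested. The median log2 difference was 1.72. Of the 28, 8 had passed through MDA-MB-231 alone and 4 through MDA-MB-468 alone. Of the 15 at 1 FPKM or more in every library, 9 were higher and none lower. Collagen VI chains COL6A1 and COL6A2 had log2 differences of 4.62 and 4.28, and COL6A1 was at 25.7, 22.2 and 23.5 FPKM in MDA-MB-231, against 0.0321, 0 and 0.0221 FPKM in MDA-MB-468. COL5A1 and COL13A1 were higher, with log2 differences of 3.74 and 4.32. THBS1, thrombospondin, was at 231.1, 280.1 and 289 FPKM in MDA-MB-231, against 3.99, 13.1 and 8.96 FPKM in MDA-MB-468. TGFBI, a matrix-associated protein, was higher, with a log2 difference of 5.07, and the crosslinking enzyme LOXL2 had 2.13. On the lower side FBLN1, fibulin, was lower, with a log2 difference of -5.91, and LAMA4 had -2.78. The groups of FBLN1 did not overlap, with 0.655, 0.421 and 0.362 FPKM in MDA-MB-231, against 89.5, 131 and 98.1 FPKM in MDA-MB-468.

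Of 12 tested integrins, 6 were higher and 4 lower, and 1 had passed through MDA-MB-231 alone and 3 through MDA-MB-468 alone. Of the 8 integrins at 1 FPKM or more in every library, 5 were higher and 1 lower. ITGA5, ITGA3 and ITGA2, alpha chains that bind fibronectin, laminin and collagen, were higher, with log2 differences of 3.84, 2.86 and 2.57, and ITGB1, their common beta chain, had 1.68. ITGA1, a collagen receptor chain, had 1.44, 2.07 and 1.86 FPKM in MDA-MB-231, against 0.00460, 0.00368 and 0.00317 FPKM in MDA-MB-468. ITGB4 and ITGB6, epithelial beta chains, were lower, with log2 differences of -2.95 and -3.14. ITGB8, a partner of the alpha V chain, and ITGB2, usually a leukocyte integrin, were lower (log2 differences -1.25 and -1.36). Matrix proteases and their inhibitors went both ways, with 10 of 21 higher (47.6%) and 8 lower (38.1%), against the same 24.3% and 22.9%. Of the 21, 5 had passed through MDA-MB-231 alone and 6 through MDA-MB-468 alone. Among the 10 at 1 FPKM or more in every library, 5 were higher and 2 lower. MMP1, an interstitial collagenase, had 14.4, 21.6 and 20.8 FPKM in MDA-MB-231, against 0, 0.0347 and 0 FPKM in MDA-MB-468, and MMP14, a membrane-bound activator, had a log2 difference of 1.75. PLAU, urokinase, stood at 146, 186 and 198 FPKM in MDA-MB-231, against 10.6, 12.9 and 12.7 FPKM in MDA-MB-468, and PLAT and TIMP1 had log2 differences of 4.44 and 2.87. ADAM8 and ADAM19, membrane metalloproteases, had log2 differences of 4.38 and 3.25. The lower members included MMP7 (log2 difference -5.99), MMP15 and MMP2 (log2 differences -2.03 and -1.57) and the kallikreins KLK5, KLK6, KLK7 and KLK10 (log2 differences -8.13, -5.94, -2.01 and -5.10), serine proteases of skin and glands. KLK6 had 0, 0 and 0.0267 FPKM in MDA-MB-231, against 65.6, 69.6 and 60.0 FPKM in MDA-MB-468, with no overlap.

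**Figure D3:**
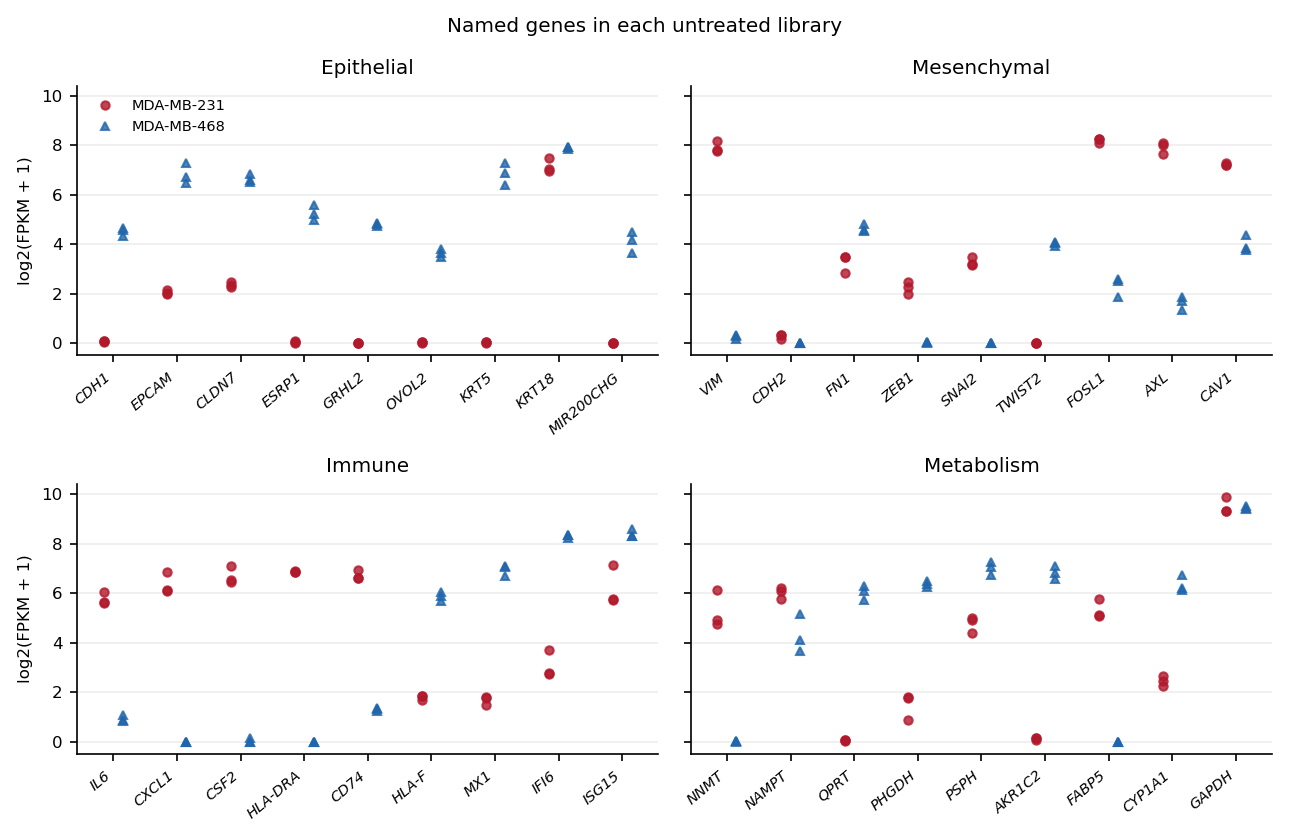
Levels as log2(FPKM + 1) on the vertical axis for epithelial, mesenchymal, immune and metabolic genes, one point per library, with MDA-MB-231 as red circles and MDA-MB-468 as blue triangles. CDH1 lies near 0 in MDA-MB-231 and VIM lies near 0 in MDA-MB-468. Not all genes of these panels do so. FN1 and TWIST2 lie lower in MDA-MB-231, CDH2 lies near 0 in both lines, and KRT18 and CAV1 lie well above 0 in both.

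YAP target genes, a readout of the Hippo pathway and of stiff adhesion, were higher in MDA-MB-231 in 13 of 21 tested and lower in 1, with a median log2 difference of 1.23. CCN1 and CCN2, matricellular proteins, had log2 differences of 3.47 and 2.05, and CCN1 was at 409.9, 474 and 493 FPKM in MDA-MB-231, against 32.2, 44.3 and 44.8 FPKM in MDA-MB-468. ANKRD1, a muscle ankyrin protein, was at 136, 157 and 151 FPKM in MDA-MB-231, against 4.05, 1.79 and 2.82 FPKM in MDA-MB-468. Both groups of libraries kept apart for these genes. F3, tissue factor, was higher, with a log2 difference of 4.26. DLC1, a GTPase-activating protein, had 6.17, 12.4 and 12.5 FPKM in MDA-MB-231, against 0.09997, 0.102 and 0.115 FPKM in MDA-MB-468. The lower member was IGFBP3, a binding protein of insulin-like growth factors, at 3.58, 3.76 and 3.62 FPKM in MDA-MB-231, against 204, 217 and 235 FPKM in MDA-MB-468, the only member called lower with all 6 libraries.

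Components of the TGF-beta and BMP pathway were higher in 12 of 27 (44.4%) and lower in 5 (18.5%), against 24.3% and 22.9% over all genes tested. The median log2 difference was 0.49. Of the 27, 5 had passed through MDA-MB-231 alone and 2 through MDA-MB-468 alone. Of the 19 at 1 FPKM or more in every library, 7 were higher and 2 lower. Both receptors TGFBR1 and TGFBR2 were higher in MDA-MB-231 (log2 differences 3.46 and 1.94), as were the transducer SMAD3 (log2 difference 2.29) and SMAD4, the common partner. SMAD4 had 3.62, 3.18 and 3.21 FPKM in MDA-MB-231, against 0.0390, 0.0104 and 0.0268 FPKM in MDA-MB-468, and the log2 difference was 2.19 ± 0.15 (SE, n = 3 libraries each, limma adjusted p = 2.2e-05). The MDA-MB-468 libraries were close to 0. Among ligands and inhibitors, BMP4, INHBA and FST, which antagonizes activins, were higher (log2 differences 3.30, 2.27 and 4.24), and BMP7 and BAMBI lower (log2 differences -3.29 and -2.32). The BMP response genes ID1 and ID2, inhibitors of basic helix-loop-helix factors, went in opposite directions, with ID1 at 328, 106 and 106 FPKM in MDA-MB-231, against 28.7, 23.5 and 19.5 FPKM in MDA-MB-468 and ID2 at 1.16, 0.383 and 0.381 FPKM in MDA-MB-231, against 7.44, 5.46 and 6.58 FPKM in MDA-MB-468. TGFB1 did not pass, with 42.4 FPKM in MDA-MB-231 and 46.2 FPKM in MDA-MB-468.

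Receptor tyrosine kinases were more often lower than higher: 4 of 18 were higher and 9 lower. Over all genes tested, 24.3% were higher and 22.9% lower. Of the 18, 1 had passed through MDA-MB-231 alone and 3 through MDA-MB-468 alone. Of the 13 at 1 FPKM or more in every library, 3 were higher and 5 lower. EGFR, a gene known to be amplified in MDA-MB-468, had 11.7, 28.4 and 26.9 FPKM in MDA-MB-231, against 174, 164 and 173 FPKM in MDA-MB-468, and the log2 difference was -2.94 ± 0.31 (SE, n = 3 libraries each, limma adjusted p = 2.0e-04). Its groups did not overlap. ERBB3, KIT and DDR1 were lower too (log2 differences -3.66, -3.25 and -3.04), and AXL, EPHA2 and PDGFRB higher (log2 differences 6.39, 2.34 and 2.34). INSR, the insulin receptor, and FGFR4 were among the lower receptors (log2 differences -1.61 and -1.45). Ligands of the EGFR family were higher in MDA-MB-231 in 4 of 5 tested, 2 of which had passed through MDA-MB-231 alone. HBEGF had 57.1, 64.1 and 64.3 FPKM in MDA-MB-231, against 2.82, 1.60 and 2.57 FPKM in MDA-MB-468, and AREG and EREG, also ligands of EGFR, had log2 differences of 4.11 and 3.22. NRG1, a neuregulin that binds ERBB3 and ERBB4, had a log2 difference of 2.12. TGFA did not pass (log2 difference 0.26). EGF, BTC and EPGN, further ligands, did not reach the filter. EGFR itself and its ligands HBEGF, AREG and EREG differed in opposite directions.

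Genes that ERK signalling induces were higher in 11 of 18 (61.1%) and lower in 3 (16.7%), against 24.3% and 22.9% over all genes tested. The median log2 difference was 1.00. DUSP6, a phosphatase that limits ERK, stood at 25.4, 38.7 and 36.5 FPKM in MDA-MB-231, against 1.75, 1.66 and 1.66 FPKM in MDA-MB-468, and SPRY4, ETV5 and PHLDA1 had log2 differences of 2.67, 2.09 and 2.2. FOSL1 had 269, 303 and 305 FPKM in MDA-MB-231, against 2.62, 5.00 and 4.70 FPKM in MDA-MB-468. SPRY1 and EGR1, also ERK outputs, were lower (log2 differences -2.29 and -1.88), and SPRY2 was level (log2 difference 0.05). EPHA4 was the third lower gene (log2 difference -1.36).

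Cytokine genes were mostly higher in MDA-MB-231. Of 18 tested, 13 were higher (72.2%) and 3 lower (16.7%), against 24.3% and 22.9% over all genes tested. The median log2 difference was 2.31, and 8 had passed through MDA-MB-231 alone. Of the 7 at 1 FPKM or more in every library, 4 were higher and 1 lower. IL6, an inflammatory interleukin, had 65.5, 47.3 and 48.4 FPKM in MDA-MB-231, against 0.783, 1.12 and 0.823 FPKM in MDA-MB-468, and the log2 difference was 5.11 ± 0.18 (SE, n = 3 libraries each, limma adjusted p = 1.1e-06). IL1A and IL1B were at 0 in all MDA-MB-468 libraries, while in MDA-MB-231 IL1A had 7.89, 52.3 and 46.1 FPKM and IL1B had 3.03, 12.3 and 11.5 FPKM, both lowest in library 1. IL11, IL24 and IL32 were higher, with log2 differences of 4.59, 4.32 and 4.59, and the colony-stimulating factors CSF2, CSF3 and CSF1 had 6.65, 4.32 and 1.41. VEGFC, a lymphatic growth factor, had a log2 difference of 4.53. TNF and TNFSF10 ran the other way (log2 differences -1.75 and -1.56).

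Of 12 chemokines tested, 4 were higher in MDA-MB-231 (33.3%) and 7 lower (58.3%), against 24.3% and 22.9% over all genes tested. The median log2 difference was -1.16, and 4 had passed through MDA-MB-468 alone and 2 through MDA-MB-231 alone. Of the 5 at 1 FPKM or more in every library, 2 were higher and 2 lower. CXCL1, CXCL2 and CXCL8, which draw neutrophils, were higher, with log2 differences of 6.33, 2.43 and 1.54. CX3CL1, a membrane-bound chemokine, had 2.34, 1.94 and 2.15 FPKM in MDA-MB-231, against 36.4, 43.1 and 43.9 FPKM in MDA-MB-468, and CCL5, CXCL16 and CCL20 were lower, with log2 differences of -2.70, -3.25 and -1.74. CCL22 and CCL28, attractants of lymphocytes, were lower (log2 differences -1.86 and -1.22), and CCL2, which attracts monocytes, was higher (log2 difference 1.58). CXCL5, also a neutrophil chemokine, was among the lower ones (log2 difference -1.10). NF-kB pathway genes were 5 higher (33.3%), 5 lower (33.3%) and 5 neither of 15, against 24.3% higher and 22.9% lower over all genes tested. Leaving out 1 library left between 3 and 5 higher and 2 and 5 lower. TRAF1 (log2 difference 3.35) was the clearest increase, and NFKBIB (log2 difference -1.56) and TNFAIP2 (log2 difference -1.80) the clearest decreases. NFKBIE, another inhibitor of NF-kB, was higher (log2 difference 1.52).

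The interferon-stimulated genes (ISGs) were lower in MDA-MB-231. Of 37 tested, 29 were lower and 1 higher (GBP2), with a median log2 difference of -2.12, and 6 had passed through MDA-MB-468 alone. GBP2 had a log2 difference of 0.61, which ranged over 0.45 to 0.73 when 1 library was left out and was not called without library 1 or 2 of MDA-MB-231 or library 2 or 3 of MDA-MB-468. Among the 28 at 1 FPKM or more in every library, 23 were lower. MX1, an antiviral GTPase, had 1.76, 2.49 and 2.34 FPKM in MDA-MB-231, against 103, 131 and 135 FPKM in MDA-MB-468, and the log2 difference was -5.18 ± 0.17 (SE, n = 3 libraries each, limma adjusted p = 9.3e-07). IFI6, an interferon-inducible mitochondrial protein, had 11.97, 5.72 and 5.76 FPKM in MDA-MB-231, against 326, 321 and 297 FPKM in MDA-MB-468. IFITM1, which restricts viral entry, and USP18, which removes ISG15 from proteins, had log2 differences of -5.18 and -4.21. OAS1 and OAS2, which make the RNase L activator, had log2 differences of -4.76 and -3.84, and ISG15, a ubiquitin-like modifier, had -2.27. No library of MDA-MB-231 reached any MDA-MB-468 library for MX1, IFI6 or OAS1. The regulator IRF7 was lower (log2 difference -2.93), while IRF1 and GBP1, which respond mainly to interferon gamma, were not called (log2 differences -0.06 and -0.12).

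The ISG promoters were searched for the interferon-stimulated response element on either strand, taken as GAAA, any 2 bases and GAAA again (TTTC blocks on the other strand). It was found in 22 of 30 ISGs with a window and in 26 of 40 windows (65.0%), against 1255 of 35116 windows over all genes (3.57%) and 2 of 31 windows of ribosomal protein genes (6.45%). The 250 bases before the start of ISG15 (chr1:1013247-1013496) and IFIT1 (chr10:89392373-89392622), both on the plus strand, are shown because these genes are in the list and hold 2 matches each, overlapping in ISG15. The element is in capitals.
ISG15: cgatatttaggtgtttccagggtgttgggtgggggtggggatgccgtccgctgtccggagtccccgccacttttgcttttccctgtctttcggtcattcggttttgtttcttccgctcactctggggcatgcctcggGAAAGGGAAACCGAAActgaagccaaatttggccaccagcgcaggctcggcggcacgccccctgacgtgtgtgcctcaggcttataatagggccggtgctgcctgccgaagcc
IFIT1: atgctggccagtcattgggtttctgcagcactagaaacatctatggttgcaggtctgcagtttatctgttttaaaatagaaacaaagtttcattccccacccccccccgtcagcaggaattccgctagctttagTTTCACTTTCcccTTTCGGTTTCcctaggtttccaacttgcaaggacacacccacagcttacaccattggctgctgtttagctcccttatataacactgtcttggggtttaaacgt

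Class I presentation followed the ISGs in direction, with smaller differences. Of 17 tested, 10 were lower in MDA-MB-231 (58.8%) and 3 higher (17.6%), against 22.9% and 24.3% over all genes tested. The median log2 difference was -0.90. HLA-F had 2.62, 2.24 and 2.60 FPKM in MDA-MB-231, against 57.7, 64.5 and 50.5 FPKM in MDA-MB-468. HLA-C and HLA-E were lower, with log2 differences of -1.51 and -1.37, the immunoproteasome subunits PSMB8 and PSMB9 had -1.96 and -1.75, and the peptide transporter TAP1 had -1.17. TAP2 was higher (log2 difference 1.12), as were ERAP1 (log2 difference 0.86) and ERAP2 (log2 difference 1.15), the trimming enzymes. HLA genes have alleles and near copies, so their FPKM depend on how reads were assigned.

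Class II presentation ran the opposite way. Of 9 tested, 8 were higher in MDA-MB-231 and 1, CTSS, lower, with a median log2 difference of 3.06, and 5 had passed through MDA-MB-231 alone. Of the 4 at 1 FPKM or more in every library, 3 were higher and 1 lower. HLA-DRA was at 113, 119 and 114 FPKM in MDA-MB-231 and 0 in all 3 MDA-MB-468 libraries. CD74, the invariant chain, had 121, 96.6 and 97.0 FPKM in MDA-MB-231, against 1.46, 1.33 and 1.58 FPKM in MDA-MB-468. HLA-DPA1, HLA-DPB1 and HLA-DRB1 had log2 differences of 3.67, 3.06 and 4.35, and HLA-DMA, a peptide exchanger, had 1.60. HLA-DMB, its partner chain, had a log2 difference of 1.78, and HLA-DQA1, HLA-DQB1 and IFI30 did not reach the filter. CIITA, the class II activator, averaged 2.90 FPKM in MDA-MB-231 and 1.75 FPKM in MDA-MB-468, a log2 difference of 0.76 that not every alternative setting called.

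In the list of NAD synthesis and nicotinamide metabolism, the pathway that NAM feeds, calls were about as frequent as over all genes. Of 22 tested, 5 were higher in MDA-MB-231 (22.7%, against 24.3% over all genes tested), 7 lower (31.8%, against 22.9%) and 10 neither, with a median log2 difference of 0.04. NAMPT, the rate-limiting enzyme that turns NAM into NAD, had 52.4, 73.2 and 66.0 FPKM in MDA-MB-231, against 34.5, 11.6 and 16.4 FPKM in MDA-MB-468, and the log2 difference was 1.72 ± 0.39 (SE, n = 3 libraries each, limma adjusted p = 0.0083). NAPRT, which uses nicotinic acid, had a log2 difference of 2.86. NNMT, which methylates NAM and so diverts it from NAD synthesis, had 68.4, 25.9 and 28.8 FPKM in MDA-MB-231, against 0.0292, 0 and 0.0201 FPKM in MDA-MB-468, and AOX1, which oxidises its product, had a log2 difference of 3.87. The MDA-MB-231 libraries were high for all 4 of these genes. QPRT, of the route from tryptophan, had 0.0480, 0.0144 and 0.0430 FPKM in MDA-MB-231, against 52.1, 77.1 and 67.6 FPKM in MDA-MB-468, and KMO and KYNU, of the same route, were lower, with log2 differences of -2.54 and -2.15. NMRK1, a nicotinamide riboside kinase, was lower (log2 difference -1.36), as were PARP2 (log2 difference -1.29) and the mitochondrial sirtuin SIRT5 (log2 difference -1.09). SIRT1 and PARP1, which consume NAD, passed no test (log2 differences -0.07 and 0.30).

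Serine and one-carbon enzymes were lower in 6 of 17 tested (35.3%, against 22.9% over all genes tested) and higher in none, and 11 passed in neither direction. PHGDH, the first enzyme of serine synthesis, had 0.834, 2.36 and 2.45 FPKM in MDA-MB-231, against 89.7, 80.4 and 75.2 FPKM in MDA-MB-468, and the log2 difference was -4.75 ± 0.22 (SE, n = 3 libraries each, limma adjusted p = 3.4e-06). PSPH, the last step, was lower, with a log2 difference of -2.27, and PSAT1 between them was not called (log2 difference -0.23), with 157 FPKM in MDA-MB-231 and 175 FPKM in MDA-MB-468. ALDH1L2 and CBS were lower, with log2 differences of -3.01 and -2.60. SLC1A4, a neutral amino acid transporter, was lower (log2 difference -1.28). PSPH lies in the 7p11 list with EGFR. Glutamine genes gave 4 higher (28.6%), 5 lower (35.7%) and 5 neither of 14, against 24.3% higher and 22.9% lower over all genes tested. The higher count was 1 or 2 without library 2 or 3 of either line. GLUL, glutamine synthetase, and GPT2 were lower (log2 differences -2.0 and -2.46). SLC1A3, a glutamate importer, had 2.62, 1.46 and 1.41 FPKM in MDA-MB-231, against 23.9, 18.6 and 21.8 FPKM in MDA-MB-468, and GLS2 and GCLC were lower (log2 differences -1.16 and -1.28).

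Glycolysis and lactate genes were higher in MDA-MB-231 in 13 of 25 and lower in 3, with a median log2 difference of 0.70. SLC16A3, the lactate exporter, had 81.2, 57.0 and 58.8 FPKM in MDA-MB-231, against 3.53, 5.16 and 3.60 FPKM in MDA-MB-468, and SLC2A3 and SLC2A1, glucose transporters, had log2 differences of 2.67 and 1.10. ENO2, PGAM1, PKM and LDHA were higher, with log2 differences of 2.802, 1.16, 1.01 and 1.02. ALDOC and PFKFB4 were higher too (log2 differences 1.52 and 1.33), and CA9, a carbonic anhydrase induced by hypoxia, and PFKL lower (log2 differences -2.02 and -1.30). GAPDH and ENO1 were not called (log2 differences -0.01 and 0.27), and SLC16A1, another lactate transporter, was lower, with a log2 difference of -2.12. ALDOA is listed at only 1.58 FPKM in MDA-MB-231 and 1.77 FPKM in MDA-MB-468, low for an aldolase, and its value was not relied on.

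Lipid synthesis genes gave 9 higher (33.3%), 6 lower (22.2%) and 12 neither of 27, with a median log2 difference of 0.02. Over all genes tested, 24.3% were higher and 22.9% lower. ACSL5 and ACSL4, which activate fatty acids, were higher, with log2 differences of 4.35 and 2.70, and the desaturases FADS1 and FADS2 had 1.74 and 1.77. ELOVL6, an elongase, was at 11.9, 15.4 and 14.5 FPKM in MDA-MB-231 and 0 in all MDA-MB-468 libraries, and FABP5 is listed at 0 in the same 3 libraries, against 53.9, 32.7 and 33.1 FPKM. SREBF2, a regulator of cholesterol synthesis, was lower, with a log2 difference of -1.68. MVD, of the mevalonate pathway, and ACSL1 were lower as well (log2 differences -1.73 and -1.25). FASN, SCD and ACLY passed no test.

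Aryl hydrocarbon receptor genes were lower in 3 of 7 (42.9%) and higher in 1 (14.3%), against 22.9% and 24.3% over all genes tested. CYP1A1 had 3.79, 4.49 and 5.30 FPKM in MDA-MB-231, against 104, 73.5 and 68.4 FPKM in MDA-MB-468, and CYP1B1 and ALDH3A1 had log2 differences of -1.397 and -3.30. TIPARP, a target of the receptor that represses it, was higher (log2 difference 1.58), and AHR, ARNT and NQO1 were not called (log2 differences -0.87, -0.18 and -0.48). NRF2 targets were lower in 10 of 25 and higher in 4. AKR1C1 and AKR1C2, steroid-reducing enzymes that are near-identical paralogs and so share reads, were lower, with log2 differences of -5.12 and -6.44, and GSR, CAT and PGD had -1.75, -1.88 and -1.60. AKR1C3, of the same family, had 3.68, 2.88 and 3.02 FPKM in MDA-MB-231, against 29.0, 17.5 and 17.6 FPKM in MDA-MB-468. FTL, the ferritin light chain, and GPX3 were higher (log2 differences 1.98 and 5.61), and the higher count was 2 without library 2 or 3 of MDA-MB-231 or library 2 of MDA-MB-468.

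Genes at 7p11 around EGFR were lower in MDA-MB-231 in all 8 tested, with a median log2 difference of -2.30, and all 8 were at 1 FPKM or more in every library. LANCL2 had 6.32, 6.14 and 5.70 FPKM in MDA-MB-231, against 95.6, 107 and 114 FPKM in MDA-MB-468, and VOPP1 and SEC61G had log2 differences of -2.72 and -2.33. NIPSNAP2, CCT6A and MRPS17 were lower as well (log2 differences -2.25, -1.25 and -1.19), and VSTM2A and SEPTIN14 did not reach the filter. Copy number was not measured. At 9p21, around CDKN2A, all 4 tested were lower, but each passed through MDA-MB-468 alone. CDKN2A, a cell cycle inhibitor, had 0, 0.0122 and 0 FPKM in MDA-MB-231, against 32.0, 38.2 and 30.9 FPKM in MDA-MB-468. CDKN2B and MTAP were at 0 in all MDA-MB-231 libraries, and MTAP had 4.64, 2.78 and 3.77 FPKM in MDA-MB-468. The 8 listed genes of 9p21 were at or near 0 in MDA-MB-231. At 13q14, RB1 was higher in MDA-MB-231, with 7.64, 10.7 and 10.6 FPKM in MDA-MB-231, against 0.370, 0.339 and 0.355 FPKM in MDA-MB-468. There 4 of 7 genes were higher (57.1%, against 24.3% over all genes tested). MED4 was among them (log2 difference 1.02), and ITM2B, beside RB1, was not called (log2 difference 0.26). At 18q21, 3 of 8 genes were higher (37.5%, against 24.3% over all genes tested) and 2 lower (25.0%, against 22.9%). SMAD4 and MYO5B were at opposite ends there (log2 differences 2.19 and -2.31). At 1p12, PHGDH fell while ZNF697 and WARS2 rose (log2 differences 2.24 and 1.06).

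**Figure D4:**
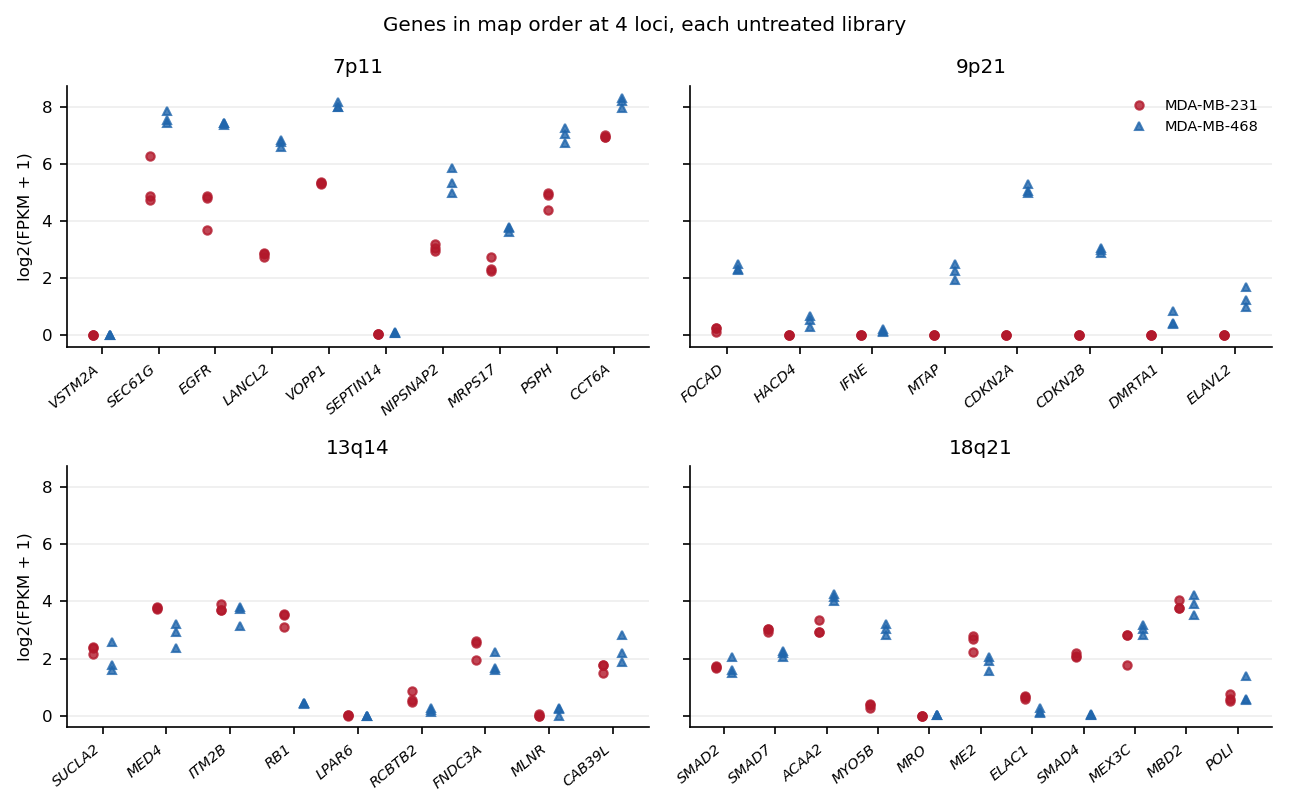
Levels as log2(FPKM + 1) on the vertical axis for genes in map order around EGFR (7p11), CDKN2A (9p21), RB1 (13q14) and SMAD4 (18q21), one point per library, with MDA-MB-231 as red circles and MDA-MB-468 as blue triangles. All 8 tested genes at 7p11 sit lower in MDA-MB-231, at a median log2 difference of -2.30, and RB1 and SMAD4 sit near 0 in MDA-MB-468.

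Across chromosomes, genes at 1 FPKM or more in every library had medians of -0.49 on chromosome 22 (278 genes, 3.96% higher and 39.2% lower) to 0.59 on chromosome 4 (337 genes, 44.5% higher and 6.53% lower). In windows of 40 neighbouring genes, that from ZNF561 to SMARCA4 (chr19:9604680-11079426) held 2 higher and 31 lower genes with a median log2 difference of -1.20, and that from XRCC4 to STARD4 (chr5:83077498-111512590) held 32 higher and 0 lower with a median log2 difference of 1.12. Windows on chromosome X had larger medians, up to 1.26 from RPS6KA3 to NDUFB11 (chrX:20149911-47145466, 29 higher and 4 lower). All these windows were picked for their differences, so they are a description.

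Cell cycle drivers gave 8 higher (34.8%), 4 lower (17.4%) and 11 neither of 23, against 24.3% higher and 22.9% lower over all genes tested. CDKN1A, a cyclin kinase inhibitor, and CCND1, cyclin D, were higher (log2 differences 2.28 and 1.80), and CDK6 and RBL1 were higher (log2 differences 1.31 and 1.81), while E2F2 and RBL2 were lower, with log2 differences of -2.58 and -1.44. Replication and mitosis genes were higher in 13 of 30 (43.3%) and lower in 2 (6.67%), with a median log2 difference of 0.52. CCNA2, AURKA and KIF11 were higher, with log2 differences of 1.53, 1.47 and 1.56, and MCM2, MCM3 and MCM7 of the replicative helicase were not called (log2 differences 0.09, 0.18 and 0.14). Growth rates were not measured.

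HOX genes, which set position along the body axis, were lower in MDA-MB-231 in 13 of 15 tested and higher in 2, and 12 had passed through MDA-MB-468 alone. HOXC10 was at 0 in all MDA-MB-231 libraries and 18.5, 15.6 and 18.6 FPKM in MDA-MB-468. HOXC13, HOXA10, HOXC11 and HOXB4 were lower (log2 differences -3.87, -2.64, -2.59 and -2.39). HOXB9 ran the other way, with 8.07, 14.98 and 14.9 FPKM in MDA-MB-231, against 0.0659, 0.0528 and 0.0908 FPKM in MDA-MB-468. HOXD4 was the other higher member (log2 difference 2.02). Of 7 cancer-testis genes tested, 5 were lower and 2 higher, and 2 had passed through MDA-MB-231 alone and 3 through MDA-MB-468 alone. MAGEA3, MAGEA6 and MAGEA12 were lower, with log2 differences of -4.99, -6.21 and -5.48. MAGEA genes are close copies, so reads may be split between them. Among 18 long RNAs, 9 were lower and 5 higher, with 8 that had passed through MDA-MB-468 alone and 2 through MDA-MB-231 alone. Of the 7 long RNAs at 1 FPKM or more in every library, 2 were higher and 1 lower. HOTAIR, a transcript of the HOXC cluster, had 0, 0 and 0.0203 FPKM in MDA-MB-231, against 18.3, 10.1 and 15.1 FPKM in MDA-MB-468, UCA1 was higher (log2 difference 1.15), and MALAT1 was not called (log2 difference 0.69). LINC01133 and HOTAIRM1 were lower (log2 differences -4.16 and -1.92), and CYTOR and NEAT1 higher (log2 differences 2.1 and 1.24).

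As lists that most cells hold at similar levels, ribosomal proteins were higher in 2 of 32 and lower in none, proteasome subunits higher in 5 of 25 (3 to 8 when a library of MDA-MB-468 was left out), and none of 13 mitochondrially encoded proteins was called. PSMD2 and PSMD12 were among the higher proteasome subunits (log2 differences 1.26 and 1.15). The ribosomal median was 0.14, the mitochondrial median -0.05 and the proteasome median 0.305, against 0.08 over all tested. Over all genes tested, the shares were 24.3% higher and 22.9% lower. Ribosomal proteins had 6.25% higher and proteasome subunits 20.0%, with 0.0% lower in both lists. The proteasome share called higher was thus near that over all genes.

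The NAM libraries gave a second reading of the same lines. In these 6 libraries 15235 genes were tested, 2989 were higher in MDA-MB-231 (19.6%) and 2967 lower (19.5%). Of 7075 control calls, 4607 were called in the same direction (65.1%), which is 77.4% of the calls in the NAM libraries, and 14 in the opposite direction. These are the same lines under a treatment, so the overlap is not an independent repeat. In the adhesion list 27 of 29 were lower and none higher, with a median log2 difference of -3.24, and the 7p11 list had 8 of 8 lower. For the ISGs, 9 of 33 tested were higher and 8 lower in NAM libraries, with a median log2 difference of -0.21.

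The line difference in the NAM libraries minus that in the control libraries was fitted in 12 libraries as an interaction. Of 15895 genes, 450 were more positive with NAM (2.83%) and 199 more negative (1.25%), and with the replicate block within each line 1267 and 903. Leaving out control library 2 or 3 or NAM library 3 of MDA-MB-231, or NAM library 3 of MDA-MB-468, gave 261 to 289 more positive and 104 to 114 more negative. Without control library 3 or NAM library 2 of MDA-MB-468, 118 and 123 were more negative. ISGs were 25 of 37 more positive and 0 more negative. The values that follow are log2 differences between the lines. MX1 had a log2 difference of -2.06 in the NAM libraries, against -5.18 in controls, and the interaction was 3.07 ± 0.27 (SE, limma adjusted p = 7.6e-05, 3 libraries a group). OASL changed direction, with 1.69 in the NAM libraries against -2.12 in controls. IFIT3 and ISG15 had 2.61 and 0.29 in the NAM libraries, against -0.88 and -2.27. MX1 averaged 2.93 FPKM in MDA-MB-231 and 16.7 FPKM in MDA-MB-468 with NAM. Among cytokines 6 of 19 were more negative and 1 more positive, and IL1A and CSF3 had log2 differences of 2.02 and 1.66 with NAM, against 4.91 and 4.32 in controls. The ligands HBEGF, AREG and NRG1 were more negative with NAM too. HBEGF had a log2 difference of 1.70 in the NAM libraries, against 4.41 in controls. NRG1 averaged 0.552 FPKM in MDA-MB-231 and 0 FPKM in MDA-MB-468 with NAM, under the filter there. Among keratins, KRT4 had -1.98 with NAM against -6.57 in controls. FN1 had 1.33 with NAM against -1.30 in controls, and THBS1 1.74 against 4.95. Epithelial adhesion genes had 0 more positive and 1 more negative of 29, namely AP1M2.

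**Figure D5:**
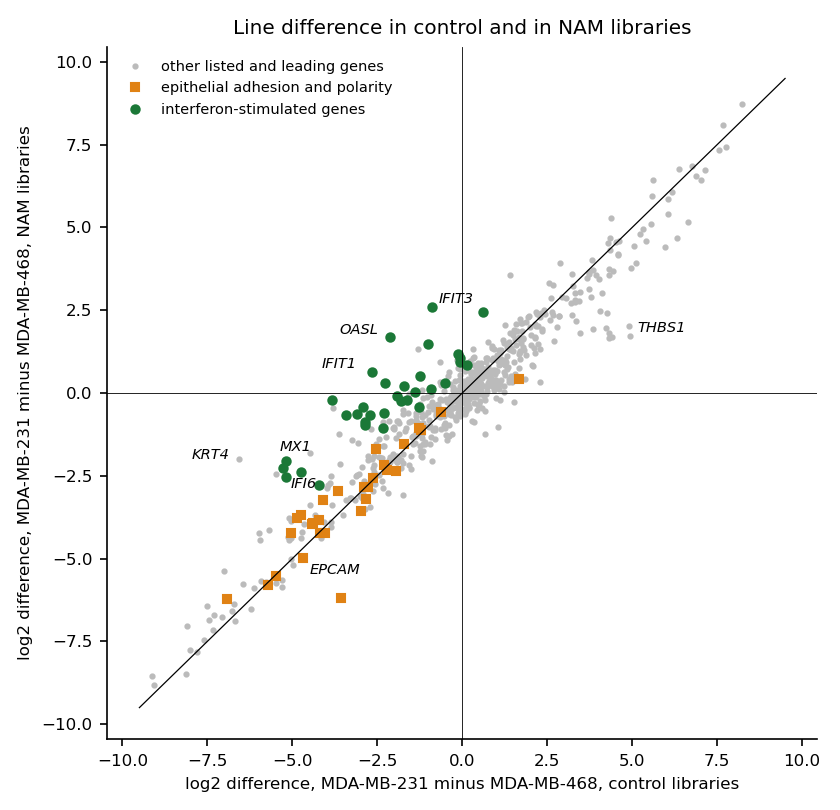
Each point is a listed or leading gene, with its difference in control libraries on the horizontal axis and in NAM libraries on the vertical axis, both MDA-MB-231 minus MDA-MB-468 in log2(FPKM + 1). The line marks equal differences. ISGs such as IFIT3 and OASL lie above it, and epithelial adhesion genes such as EPCAM lie near it.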

How the data were processed

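RNA was measured by sequencing in 18 libraries of 3 lines, of which the 6 controls of MDA-MB-231 and MDA-MB-468 were compared. The paper and the submitters' processing notes name cutadapt 2.8 for adapter removal, TopHat2 2.1.1 for alignment against GRCh38.p13 and HTSeq 0.11.3 for counting per gene. Values were deposited as FPKM and were neither filtered nor quantile-normalized. The paper names cufflinks and Ensembl gene lengths for the FPKM, and the values themselves do not show which tool made them. The labels name a stranded kit, and whether counting used strand is not stated. Of 60676 gene IDs, 60357 matched GENCODE 44, and 1194 further genes share a symbol. Whole reads were recovered for all but 288 of 39935 genes above 0, 32240 through gene length and 7407 through the steps of their values (99.9% of values whole within 0.01 reads), which put the authors' divisor at the reads of protein-coding genes, and were tested with limma-voom as an alternative. Depth was 11956284 to 19951989 reads per library.

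Genes with at least 1 FPKM in at least 3 of 6 libraries were tested with limma 3.58.1 in R 4.3.3 on quantile-normalized log2(FPKM + 1), with Benjamini-Hochberg adjustment. A call needed an adjusted p under 0.05 and a difference above 0.58. The fits were tested on simulated data. With 3 against 3 libraries, an exact two-sided permutation test cannot go below 0.1, so single genes rest on limma. Whether the numbers pair the control and NAM libraries of a line could not be settled from the values. Deviations of same-numbered libraries correlated at 0.72, 0.60 and 0.68 in MDA-MB-231 and 0.70, 0.61 and 0.13 in MDA-MB-468. All passed the rule used here, a correlation over 0.1. Some pairs with different numbers correlated as closely (0.66 for NAM library 3 and control library 2 of MDA-MB-231, 0.43 for NAM library 2 and control library 3 of MDA-MB-468). Deviations were taken from a mean of 3 libraries, so where library 1 stands apart the others correlate whatever their numbers, and the rule cannot show pairing. The interaction values given are from the fit without the block, and the fit with it is an alternative.

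The gene lists and named genes were chosen with earlier results of these data known. The text draws on the 15 leading genes in each direction (called, groups not overlapping, at least 5 FPKM in the higher line), up to 6 called members of each list in each direction by size, up to 4 members not called, every member of short lists, and the marker genes. Chromosomes and windows were picked for their differences. Chosen after their values were seen, and outside that rule, were AP1M2, CDH11, CLDN1, COL5A1, CRB3, CSF1, CSF3, CXCL5, ETS1, FADS1, GATA3, IFIT1, IFIT3, IL1B, IL24, IRF7, ISG15, KLF5, KRT14, L1CAM, LCN2, LDHA, LLGL2, LOXL2, MMP14, MMP2, MUC1, OASL, OVOL2, PGAM1, PKM, SLC2A1, SPINT2, TAP1, TGFBR2 and TP63. Some genes that the rule takes are not reported here. Alternatives covered the pseudocount (0.1 and 0.5), the filter, normalization, the fit and each left-out library.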

Additional observations from a re-analysis of the deposited data

Results flagged for a closer look

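For the genes below, the difference between the lines in the NAM libraries was tested against that in the control libraries, as the interaction in a limma fit of 12 libraries, and the difference passed the call rule. Each value in brackets is the log2 line difference with NAM minus that in controls, so a positive one means that MDA-MB-231 moved up relative to MDA-MB-468. The value does not tell which line changed, and a fall in MDA-MB-468 alone also gives a positive one. Groups of 3 libraries were too small to be screened for a single library that stands apart.

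Among the interferon-stimulated genes they were OASL (3.81), OAS2 (3.56), IFIT3 (3.51), IFIT1 (3.28), MX1 (3.07), IFI6 (3.00), IFITM1 (2.58), ISG15 (2.57), IRF7 (2.48), OAS1 (2.33), GBP2 (1.87), GBP1 (1.32), USP18 (1.32) and IRF1 (1.00). Of the chemokine genes, CCL5 (1.58), CCL22 (1.47), CX3CL1 (1.39), CXCL5 (1.29), CCL2 (-0.97) and CXCL1 (-1.66) did so. In the cytokines and colony-stimulating factors this held for CSF1 (2.15), IL6 (-1.03), CSF2 (-1.48), IL24 (-2.56), CSF3 (-2.73) and IL1A (-2.93). The NRF2 targets and antioxidant genes that differed were AKR1C3 (1.62), GSR (1.22) and GPX3 (0.92). Among the ligands of the EGFR family they were AREG (-1.03), NRG1 (-1.404) and HBEGF (-2.64). Of the TGF-beta and BMP genes, BAMBI (1.400), INHBA (-1.93) and FST (-2.29) did so. In the collagen and matrix genes this held for LAMA4 (0.97), CCN1 (-1.67) and THBS1 (-3.19). The epithelial and luminal transcription factors that differed were FOXA1 (1.18), SPDEF (1.05) and KLF5 (1.01).

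Among the matrix proteases and inhibitors they were MMP7 (1.79), KLK6 (1.51) and KLK7 (1.05). Of the AHR genes, CYP1A1 (3.27) and ALDH3A1 (2.44) did so. In the mesenchymal and motility genes this held for FN1 (2.65) and CDH4 (-1.60). The ERK pathway output genes that differed were ETV5 (-1.24) and DUSP6 (-1.84). Among the YAP target genes they were IGFBP3 (3.01) and F3 (-1.80). Of the growth factor receptors, KIT (1.89) and INSR (1.32) did so. In the keratin genes this held for KRT4 (4.64) and KRT6B (1.56). The mucins and apical surface genes that differed were MUC1 (1.29) and TSPAN1 (1.11). From other groups there were AOX1 (-2.18), AP1M2 (-2.66), CASP14 (1.63), CTSS (0.97), MIR205HG (1.64), SLC2A1 (-1.33), TRAF1 (-1.02) and TWIST2 (1.18).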

How the results depend on the processing

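Of 323 named genes called in the comparison of the lines, 316 were called under every alternative in which they were tested. No named gene changed direction between a call and an alternative. With a minimum of 5 FPKM, fewer genes could be tested, and 2287 were higher and 2164 lower, with 2779 calls shared with the NAM libraries. Leaving out 1 library gave 2950 to 3929 genes higher, 2933 to 3537 lower, and 443 to 488 listed genes called. For the genes at 1 FPKM or more in every library it gave 1860 to 2663 higher and 1393 to 1917 lower, and for calls shared with the NAM libraries 3646 to 5138. limma-voom on the recovered reads gave 3325 higher and 4070 lower (45.0% of calls higher). Averaging libraries 2 and 3 of MDA-MB-231 into 1 and leaving out library 1 of both lines were chosen after seeing the data, and gave 3022 and 4430 higher and 2979 and 3914 lower. Across the lines, deviations of same-numbered libraries correlated at 0.25, -0.01 and 0.39, and library 2 of MDA-MB-231 correlated best with library 3 of MDA-MB-468 (0.27). Library 1 of both lines lay on the same side of the second principal component (41.5 and 28.8), opposite to the other libraries. The main fit did not pair libraries across the lines, and the fit with the number as a replicate block gave 3856 higher and 3549 lower.

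For the line difference with NAM minus that in controls, all alternatives were chosen after seeing the data. The replicate block within each line gave 1267 more positive and 903 more negative genes, against 450 and 199 without it, and leaving out 1 library gave 261 to 515 and 104 to 252. The lowest of each, 261 and 104, came without control library 3 of MDA-MB-231. Depth limits genes near 1 FPKM, where differences of log2(FPKM + 1) are small by construction, and the cause of these movements was not tested.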

Other observations

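Among leading genes not described above, BEX3, an adaptor of the neurotrophin receptor, had 166, 89.9 and 88.2 FPKM in MDA-MB-231, against 0 FPKM in all 3 libraries of MDA-MB-468. RAB32, a GTPase of melanosomes and mitochondria, had 90.3, 61.7 and 66.8 FPKM in MDA-MB-231, against 0, 0.0642 and 0 FPKM in MDA-MB-468. On the other side, RARRES1, a retinoic acid response gene, had 0.174, 0.235 and 0.312 FPKM in MDA-MB-231, against 440.2, 194 and 283 FPKM in MDA-MB-468, and MGP, matrix Gla protein, averaged 0.161 FPKM in MDA-MB-231 and 227 FPKM in MDA-MB-468. For all 4 genes the groups of libraries did not overlap.

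The AP-1 motif TGANTCA, which reads as itself on the other strand, was searched in the same promoter windows as the E-box. It was found in 6 of 17 windows of cytokine genes (35.3%), 2 of 19 of matrix protease genes (10.5%), 0 of 26 of collagen and matrix genes and 0 of 31 of ribosomal protein genes, against 2707 of 35116 windows over all genes (7.71%). A match describes the letters and is not evidence of binding.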
